A study of Daphnia magna with 24 samples.

Results

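Transcript levels were compared between whole Daphnia magna, a freshwater crustacean used in aquatic toxicology, that had been exposed to long silver nanowires carrying either a silica coat (L-SiO2-NW) or a polyvinylpyrrolidone coat (L-PVP-NW). The 8 arrays compared were those whose titles name these exposures, L-SiO2-NW 1 to 4 and L-PVP-NW A to D, out of 24 arrays in the series. The question was which transcripts differ with the coating while the metal core and the length class stay the same. Per the labels, every exposure lasted 24 h at 1/10 of that material's own LC50, the concentration lethal to a 50% share of the animals, in COMBO growth medium, and about 20 animals went into each exposure. The sources used here give neither the silver mass behind each LC50 nor the age and brood state of the animals, so coating and dose cannot be told apart. The other arrays are 4 Control arrays of unexposed animals, 4 of dissolved silver (Ag+), and 4 each of short silica-coated and short PVP-coated nanowires (S-SiO2-NW and S-PVP-NW). Nothing in the labels says whether the 4 arrays of a group came from separate cultures, so p-values measure the spread between these arrays, which may be partly technical.

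Polyvinylpyrrolidone is a synthetic polymer that adsorbs to the metal surface and keeps particles dispersed, whereas silica forms a glass-like shell around the metal. Vitellogenin is the yolk precursor that egg-laying animals load into developing oocytes, and Daphnia vitellogenin carries a domain related to superoxide dismutase, an enzyme that removes superoxide. Trypsin, chymotrypsin and carboxypeptidase B are gut proteases of arthropods: the first pair cut inside protein chains and the last trims basic residues from their ends. In a whole-animal extract, fewer cells of a type and less RNA per cell cannot be told apart, and neither can the share of animals that carry growing oocytes.

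The probes that carry the main differences are printed first, in lower case, as deposited and from 5′ to 3′. They are 4 vitellogenin probes and 1 chymotrypsin probe, which show the described families, and 2 probes without a usable description, which show the largest differences. Genome positions are not used here.
DM01556P2: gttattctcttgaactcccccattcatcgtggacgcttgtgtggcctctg
DM02255P1: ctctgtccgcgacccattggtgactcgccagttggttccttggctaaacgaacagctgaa
DM01546P3: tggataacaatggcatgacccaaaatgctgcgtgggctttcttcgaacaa
DM05876P2: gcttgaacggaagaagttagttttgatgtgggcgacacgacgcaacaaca
DM02109P1: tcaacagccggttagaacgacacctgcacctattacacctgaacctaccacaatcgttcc
DM04057P3: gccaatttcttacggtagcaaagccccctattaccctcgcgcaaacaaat
DM11644P3: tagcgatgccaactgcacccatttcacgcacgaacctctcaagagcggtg
Across the 11 probes of the vitellogenin and oogenesis list, the longest stretch shared by any of the 55 pairs, on either strand, was 8 bases. These 11 probes were designed on 11 differently named sequences, and whether some of those are pieces of 1 gene was not tested.

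Of 14338 features, 686 (4.78%) differed between the coatings, 385 (2.69%) higher and 301 (2.1%) lower in L-SiO2-NW (limma, Benjamini-Hochberg adjusted p under 0.05). Centring each array on its median in place of quantile normalization gave 666 features, of which 67.0% were higher in L-SiO2-NW, against 56.1% here. The difference was over 2-fold for 161 of the 686, with 109 higher and 52 lower. Among the features that differed, the 4 arrays of each coating did not overlap for 619, against 13.1% of all features (6.37% with silica above PVP and 6.72% with silica below). A feature was called dim on an array when its intensity lay below 2 times that array's lower quartile. Of the 686, 190 (27.7%) were dim on every array of both groups, against 8499 of all 14338 features. Leaving out L-PVP-NW A, L-PVP-NW B, L-SiO2-NW 1 or L-SiO2-NW 4 lowered the count to 255, 204, 316 and 282.

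The arrays themselves differed in ways that move with the coating. The 1st percentile of the intensities, a measure of each array's floor, was 41.8 ± 0.957 (SD, n = 4) on the L-SiO2-NW arrays and 48.8 ± 0.957 on the L-PVP-NW arrays. No array of one coating overlapped the other (exact permutation test, two-sided p = 0.0286, the smallest that 4 against 4 arrays allow, and 0.0571 after adjustment over 2 array measures). The Control arrays had floors of 46 to 50, which overlapped those of L-PVP-NW (48 to 50) and not those of L-SiO2-NW (41 to 43). Features above 2 times the lower quartile numbered 4303 to 5135 per L-SiO2-NW array and 3515 to 4528 per L-PVP-NW array (exact permutation p = 0.0857). Pearson correlations over all features ran from 0.937 to 0.971 within L-SiO2-NW, from 0.950 to 0.973 within L-PVP-NW, and from 0.911 to 0.965 between them. With the floor as a covariate over the 24 arrays, 0 features passed in limma. At an unadjusted p under 0.05 there were then 855 of 14338 features, fewer than the 2946 (20.5%) without the covariate. The sources used here name no slide or scan, so an array batch and the coating cannot be told apart.

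**Figure D1:**
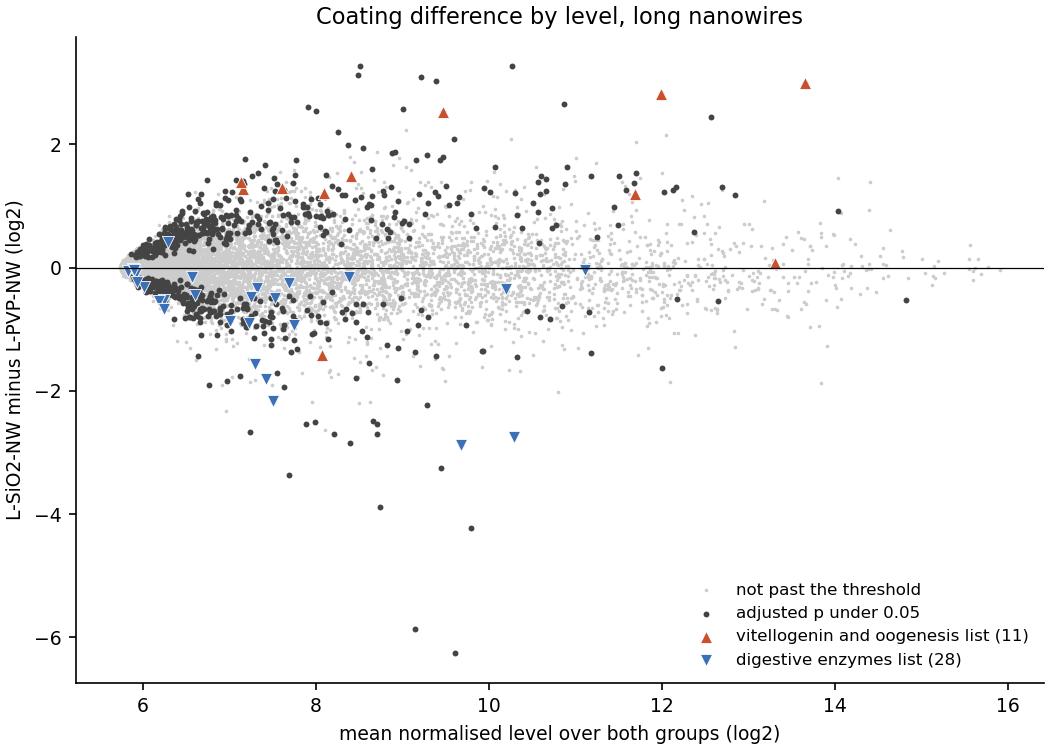
Difference between L-SiO2-NW and L-PVP-NW (log2, vertical axis) against the mean normalised level over both groups (log2, horizontal axis), 1 point per feature. Dark points are the 686 features past the threshold, upward triangles the 11 vitellogenin and oogenesis features, most of which lie above 0, and downward triangles the 28 digestive enzyme features, 27 of which lie below 0.

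Protein descriptions come from the authors' deposited table, which holds 1826 features that the authors selected on these same samples. A description was used as a name only where its database match had an E value of 0.001 or less, which holds for 493 features. Of these 493, 44 (8.92%) differed between the coatings, 23 higher and 21 lower in L-SiO2-NW. Membership of every gene list below rests on these names, so a list is not independent evidence of its direction.

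The 3 largest excesses under the silica coat among described features belonged to vitellogenin. In the vitellogenin and oogenesis list, 5 of 11 features were higher in L-SiO2-NW and 0 were lower (8 and 0 at an unadjusted p under 0.05 in limma), against 2.69% of all features higher, with a median difference of 1.29 (log2) against -0.006 over all features. The most abundant of the 5, DM01556P2, matches Daphnia magna vitellogenin fused with superoxide dismutase. Its intensity was 8089, 2522, 2127 and 6094 on L-PVP-NW A to D and 52725, 26556, 29739 and 51096 on L-SiO2-NW 1 to 4. Every silica array read more than 3 times the highest PVP array. On the normalised scale this was a difference of 2.99 ± 0.81 (log2 ± SE, limma adjusted p = 0.0397), or 7.96-fold.

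The same protein is matched by DM02255P1, which read 1739, 921, 738 and 2173 under PVP and 15265, 10024, 10450 and 12935 under silica. It differed by 2.82 (adjusted p = 0.0215), and the lowest silica array lay well above the highest PVP array. DM01546P3, another match to the fused protein, read 450, 140, 82 and 479 under PVP and 1825, 1435, 2248 and 2024 under silica. Its difference was 2.52 (adjusted p = 0.0213), and the groups again did not overlap. In both features, L-PVP-NW B and C gave the lowest readings of all 8 arrays.

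The remaining members that passed match a vitellogenin-like protein of the salmon louse, Lepeophtheirus salmonis, and gave weaker signals. DM05876P2 read 67, 65, 73 and 108 under PVP and 381, 193, 247 and 192 under silica. Since it was dim on all 4 L-PVP-NW arrays, it is given as at least 1.63-fold higher (fitted difference 1.40, adjusted p = 0.0116). DM01774P1 read 88, 79, 80 and 209 under PVP and 360, 399, 292 and 280 under silica, a difference of 1.29 (adjusted p = 0.0480). Its intensities did not overlap, though its normalised values did.

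A further 5 features matched to the fused vitellogenin did not pass. Differences were 1.48 for DM00120P2 (adjusted p = 0.138), 1.27 (fitted, dim on all 4 PVP arrays) for DM01555P3 (0.0619), 1.21 for DM00260P2 (0.0594) and 1.19 for DM01857P2 (0.384). DM02775P1 stood apart from the others: it read 3756, 26641, 2720 and 25244 under PVP and 9089, 26733, 27496 and 2431 under silica. Each coating thus had both high and low arrays of this feature, and the difference was 0.08 (SE 0.89, adjusted p = 0.979). The only list member with a negative value, DM02106P1, matches a vitelline membrane outer layer protein, a component of egg coats in other animals, and gave -1.42 (adjusted p = 0.397). DM03167P3 carries the fused vitellogenin description at an E value of 0.003 and is therefore no list member. It was chosen after its values were seen, and it was higher under silica by 2.58 (adjusted p = 0.0122).

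**Figure D2:**
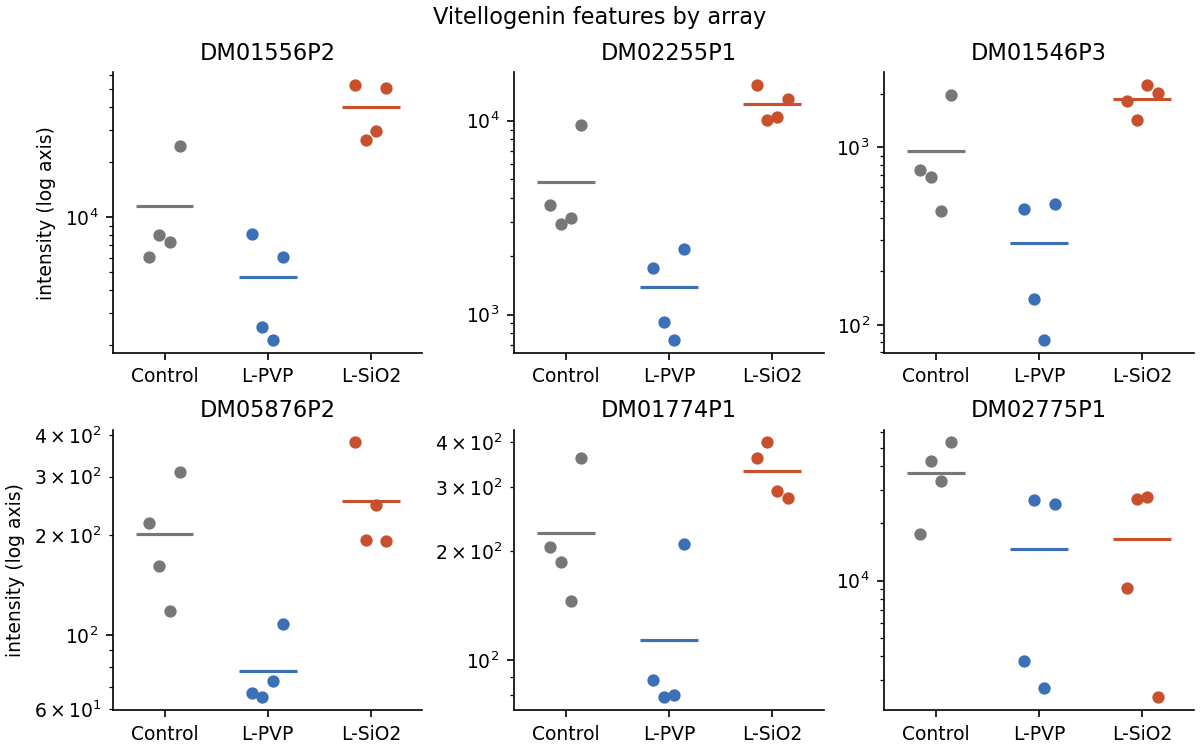
Intensity of 6 vitellogenin features (log axis) on the Control, L-PVP-NW and L-SiO2-NW arrays, 4 points per group, with the group mean as a line. The silica arrays lie above all PVP arrays for the first 5 features, and the coatings overlap for DM02775P1.

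Unexposed animals lay between the coatings for the 3 fused vitellogenin features that passed. DM01556P2 read 6088, 7993, 7312 and 24337 on Control 1 to 4, so that 1 Control array stood far above the other 3. Its difference from Control was 1.78 in L-SiO2-NW (adjusted p = 0.281) and -1.22 in L-PVP-NW (adjusted p = 0.705). These comparisons share the Control arrays, and neither passed. For DM05876P2 the values against Control were -0.09 in L-SiO2-NW (adjusted p = 0.931) and -1.48 in L-PVP-NW (adjusted p = 0.0685). In the authors' deposited table, the log2 ratio to medium is -2 for DM01546P3 in L-PVP-NW, and -1.8 and 1.2 for DM02255P1 in L-PVP-NW and L-SiO2-NW.

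The number of vitellogenin features past the threshold depended on which array was left out. On leaving out L-PVP-NW B, 0 of the 11 features passed (8 at an unadjusted p under 0.05 in limma), and on leaving out L-PVP-NW C or L-SiO2-NW 4, 1 did. The count fell to 2 when L-SiO2-NW 1 was dropped and to 3 when L-PVP-NW A or L-SiO2-NW 2 was, and was 4 without L-SiO2-NW 3 and 5 without L-PVP-NW D. The list median stayed between 1.06 and 1.63 over these 8 fits, and the adjusted p of DM01556P2 ran from 0.0304 to 0.121. Without an array, the DM01556P2 difference was 2.49 to 3.32.

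Some digestive enzymes were lower under the silica coat, and most members of the list did not pass. In this list, 5 of 28 features were lower in L-SiO2-NW and 0 were higher, against 2.1% of all features lower (11 and 1 at an unadjusted p under 0.05 in limma). The median difference was -0.40, and 27 of the 28 values were negative, against 7421 of 14338 over all features. Of the 28, 11 were dim on every array of both groups, and the floor of the arrays differed between the coatings. Among the other 17, 3 were lower, 0 were higher and 16 values were negative. Over all features not dim on every array of both groups, 2673 of 5839 values were negative. Chymotrypsin DM02109P1 read 1314, 3099, 3262 and 884 under PVP and 417, 726, 222 and 154 under silica. All PVP arrays read above all silica arrays, and the difference was -2.87 ± 0.67 (adjusted p = 0.0192).

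DM02156P3 was the next largest of the 5 and matches a salivary secreted protein of the blood-feeding bug Triatoma infestans. It read 205, 514, 249 and 294 under PVP and 106, 127, 59 and 45 under silica, a difference of -2.17 (adjusted p = 0.0354), and 2 of the silica arrays were dim. The other 3 are carboxypeptidase features with small intensities. Procarboxypeptidase B DM01867P2 read 145, 157, 184 and 95 under PVP and 90, 81, 80 and 130 under silica. L-SiO2-NW 4 exceeded L-PVP-NW D in intensity, while the normalised values did not overlap (difference -0.86, adjusted p = 0.0267). Carboxypeptidase B features DM02850P3 and DM02827P1 also passed as lower (adjusted p = 0.0109 and 0.0406), but both were dim on all 8 arrays, so no size is given. The call of DM02850P3 held without each of the 8 arrays in turn, whereas 4 of these ended that of DM01867P2 and 6 ended those of DM02156P3 and DM02827P1.

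Trypsin DM01846P3 had the second largest difference of the list but did not pass. It read 1864, 4993, 2097 and 2956 under PVP and 1048, 1397, 372 and 120 under silica. The arrays did not overlap, and the value was -2.74 ± 0.82 (adjusted p = 0.0580). Carboxypeptidase B features DM01830P1 and DM00410P1 gave -1.81 (adjusted p = 0.189) and -1.56 (adjusted p = 0.0811). Of the 2 alpha-amylase features, starch-splitting enzymes, DM01660P4 was dim on all 8 arrays and DM01845P3 gave -0.33, which did not pass. With median centring the values of DM01845P3 and DM06032P1, a feature with a trypsin domain description, were positive.

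Against Control, chymotrypsin DM02109P1 was lower in L-SiO2-NW by -3.12 (adjusted p = 0.0362) and gave -0.24 in L-PVP-NW (adjusted p = 0.956), with the Control arrays shared. Control values of this feature were 539, 2286, 1456 and 9176, a wider range than in either exposure. Trypsin DM01846P3 gave -3.48 against Control in L-SiO2-NW (adjusted p = 0.0454) and -0.73 in L-PVP-NW (adjusted p = 0.862). When L-PVP-NW B or L-SiO2-NW 1 was left out, 1 of the 28 digestive features passed, and when L-PVP-NW A or L-SiO2-NW 4 was, 2 did. With any other of the 8 arrays left out, 3 to 6 passed. The chymotrypsin call was lost without L-PVP-NW B, L-SiO2-NW 1 or L-SiO2-NW 4, at adjusted p up to 0.0823. Median centring lowered the count of the 28 that passed to 2, at a median of -0.24.

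**Figure D3:**
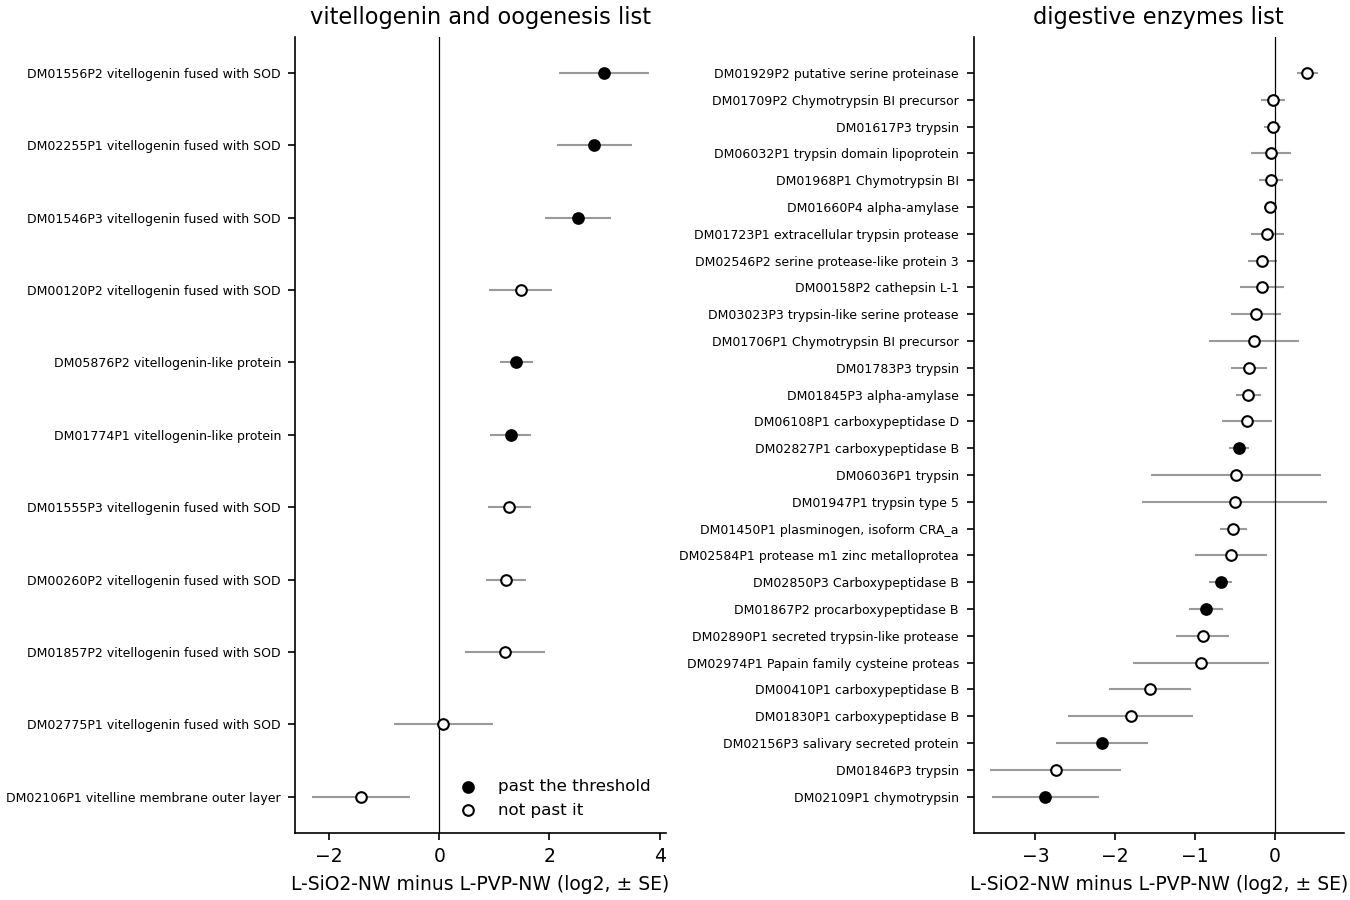
Difference between L-SiO2-NW and L-PVP-NW (log2 ± SE) for each member of the vitellogenin and oogenesis list (left, 11 features) and the digestive enzymes list (right, 28 features). Filled points passed the threshold, 5 on each side, and all filled points on the left are above 0 and on the right below 0.

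Other described features were higher under silica. Importin alpha-2 DM00539P2, a carrier that brings proteins into the nucleus, read 120, 144, 439 and 235 under PVP and 1703, 540, 507 and 1993 under silica. The silica arrays spread almost 4-fold but stayed above every PVP array, and the difference was 1.87 (adjusted p = 0.0272). Carbonic anhydrase DM02267P1, which converts carbon dioxide and bicarbonate into each other, read 3491, 1918, 2744 and 2014 under PVP and 7318, 9479, 8120 and 7882 under silica. It was bright on all 8 arrays, and the difference was 1.31 (adjusted p = 0.0136). Chitinase DM00651P1, an enzyme that breaks down chitin, read 65, 57, 61 and 61 under PVP and 239, 144, 79 and 465 under silica. It was dim on every PVP array and is given as at least 1.26-fold higher (fitted difference 1.42, adjusted p = 0.0273).

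Nucleosome assembly protein DM03060P3, a histone carrier, was higher by 1.22 (adjusted p = 0.0173). Cheerio DM00167P2, the insect filamin that crosslinks actin, was higher by 1.17 (adjusted p = 0.0470), although L-PVP-NW C read 497 and L-SiO2-NW 3 read 444. Ubiquitin-conjugating enzyme DM00219P2 read 174 to 319 under PVP and 397 to 844 under silica, with a difference of 0.98 (adjusted p = 0.0106). Cyclin G DM05852P1, a cell cycle regulator, was higher by 1.05 (adjusted p = 0.0121). A putative defence protein, DM02004P1, was higher by 0.58 (adjusted p = 0.0394), reading 2513 to 5775 under PVP and 4964 to 9077 under silica. The silica-higher features named by Drosophila gene numbers or as hypothetical proteins were DM02654P2 (1.48), DM05997P2 (1.23) and DM01151P3 (1.14). The call of DM05997P2 was lost without L-PVP-NW B, L-SiO2-NW 1 or L-SiO2-NW 4 (adjusted p up to 0.0861). DM02654P2, DM01151P3 and DM00219P2 passed without each of the 8 arrays in turn. The calls of DM00539P2 and DM03060P3 were lost without L-PVP-NW A, L-PVP-NW B, L-SiO2-NW 1 or L-SiO2-NW 4, at adjusted p up to 0.103 and 0.0725. Those of DM02267P1 and DM05852P1 were lost without L-PVP-NW B (0.0592 and 0.0567), the latter also without L-SiO2-NW 4 (0.0524). For DM00651P1, DM00167P2 and DM02004P1, 5, 6 and 6 of the 8 left-out arrays ended the call.

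A group of described but functionally unnamed features was lower under silica. DM05875P1, matched to a predicted protein of the sea anemone Nematostella vectensis, read 1441, 2794, 2022 and 1248 under PVP and 324, 618, 186 and 70 under silica. The difference was -3.25 ± 0.66 (adjusted p = 0.00873). DM02198P3 gave -2.84 (adjusted p = 0.00671), DM05827P3 -2.70 (0.00999), DM01675P1 -2.54 (0.0313) and DM02032P3 -1.79 (0.0267). For each of these 5, the value against Control was also lower in L-SiO2-NW, between -3.14 for DM05875P1 and -1.97 for DM02032P3, with adjusted p between 0.0182 and 0.0412. In L-PVP-NW the corresponding values were between -0.48 and 0.11. DM05875P1, DM02198P3 and DM05827P3 passed without each of the 8 arrays in turn, whereas DM01675P1 lost its call without 6 and DM02032P3 without 5 of them. Smaller differences were seen for DM02895P2 (-1.03), DM02631P2 (-0.90) and vinculin DM02544P3 (-0.89), a protein of cell adhesion sites. DM02895P2 and DM02544P3 were dim on all 4 silica arrays, and on the deposited intensities they are at least 1.43-fold and 1.25-fold lower. The vinculin call was lost without L-PVP-NW A, L-PVP-NW B, L-SiO2-NW 1 or L-SiO2-NW 4.

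In the lists of housekeeping and structural genes, the share that passed was near that over all features (4.78%) and below that over the 493 described ones (8.92%). Of 27 cytosolic ribosomal protein features, 1 was higher and 1 lower (7.41%). At an unadjusted p under 0.05 in limma, 1 was higher and 7 were lower, against 10.3% of all features lower, and 21 of the 27 values were negative. Ribosomal protein L3e DM00264P2 was higher by 1.03 (adjusted p = 0.00759), and L10a DM01583P3 was lower by -0.86 (adjusted p = 0.0242). The median of this list was -0.32, but 0.06 with median centring, so its direction depended on the scaling. Of the 8 arrays left out in turn, none ended the call of DM00264P2 and 4 ended that of DM01583P3. Of 19 muscle and cytoskeleton features, 1 (5.26%) was lower, calponin/transgelin DM02128P2, an actin-binding protein of muscle. It read 1879, 1896, 2007 and 1668 under PVP and 1506, 1255, 1767 and 1108 under silica, overlapping at 1 array, and the difference was -0.83 (adjusted p = 0.0242), a call that 5 of the 8 left-out arrays ended. In the muscle list, 17 of 19 values were negative, with 1 feature higher and 7 lower at an unadjusted p under 0.05 in limma. Negative values thus also prevailed in lists other than the digestive one. The median of the muscle list was -0.32, or -0.04 with median centring.

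In 9 further lists, with 61 members in all, 0 members passed in limma, against 4.78% of all features and 8.92% of the described ones. At an unadjusted p under 0.05 there were 14 of 61, against 20.5% of all features. Of these, 8 were cuticle (19 members), respiratory chain and ATP synthase (8), chaperones (7), nerve and vision (7), hemoglobin (5), collagen and matrix (5), translation factors (5) and lipid transport (3). The ninth was metal handling, whose 2 features are ferritins, proteins that store iron, with DM01566P3 dim on all 8 arrays and a value of -0.17 for DM01902P1. Hemoglobin 4 DM01998P1 read 2830, 5697, 2954 and 1868 under PVP and 1422, 1385, 910 and 507 under silica. Its arrays did not overlap, but the value of -2.02 missed the threshold (adjusted p = 0.0652). The other hemoglobin features had overlapping arrays, with 0.92 for DM01561P3 and 0.73 for DM01948P1. Heat shock protein 90 DM01059P3, a chaperone, gave 0.44 (adjusted p = 0.758), while another heat shock protein 90 feature, DM02180P3, gave -0.09 (adjusted p = 0.874). Of the 7 chaperone values, 5 were negative, with a median of -0.30 against -0.006 over all features. Calreticulin DM00482P3 gave -0.89 (adjusted p = 0.0519). A chitinase distinct from the one above, DM01392P4, gave 1.20 (adjusted p = 0.0868), and the third, DM01822P3, gave -0.69 (adjusted p = 0.645).

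In the oxidative stress list, 3 of 13 features were higher and 0 lower (7 and 0 at an unadjusted p under 0.05 in limma), against 2.69% of all features higher, or 10.2% at an unadjusted p under 0.05. All 3 were the fused vitellogenins already described, which enter this list through the words superoxide dismutase. Those fused vitellogenins that did not pass are members too. Apart from them, thioredoxin reductase DM00670P2 had a positive value (adjusted p = 0.0755). Negative values came from glutathione S-transferases DM01138P4 and DM05883P1, cytochrome P450 DM02419P1 and carboxylesterase DM02989P4 (adjusted p from 0.523 to 0.709). The counts of this list are thus mostly those of vitellogenin. The 7 ion transport, 5 ubiquitin and proteasome, 5 histone and cell cycle, 4 immune and 4 chitin features each held 1 that was higher, all named above. The list of algal food genes matched 0 features.

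The largest differences of all belonged to features without a usable description. The sequence that the DM04057P3 probe was designed on is named putative glutamate receptor. Names here rest on protein matches, and that of DM04057P3, to a different protein, has an E value of 0.54. DM04057P3 read 18551, 16081, 6664 and 625 on L-PVP-NW A to D, and 91, 78, 97 and 69 on L-SiO2-NW 1 to 4. It was dim on every silica and Control array and is at least 64.8-fold lower under silica on the normalised scale, or 57.7-fold on the deposited intensities (fitted difference -6.26 ± 0.61, adjusted p = 3.97e-05). Among the PVP arrays, D was the lowest by an order of magnitude. DM11644P3 read 25251, 6734, 4196 and 310 under PVP and 74, 70, 60 and 62 under silica. It followed the same order of arrays, with a difference of at least 40.9-fold, or 37.5-fold on the deposited intensities (fitted -5.87 ± 0.71, adjusted p = 0.000529).

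These were the only 2 of the 686 features that were bright on all 4 L-PVP-NW arrays and dim on all 4 L-SiO2-NW and all 4 Control arrays, a grouping made after the values were seen. Both were among the 4 features that differed between L-PVP-NW and Control, with fitted differences of 6.03 (adjusted p = 7.44e-05) for DM04057P3 and 5.95 (0.000429) for DM11644P3. The third of the 4 was DM12580P3, which read 198, 197, 347 and 133 under PVP and 89, 56, 60 and 83 under silica. It was at least 2.44-fold lower under silica, or 2.00-fold on the deposited intensities (fitted -1.76, adjusted p = 0.00118).

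DM04454P3 and DM11495P2, also chosen after their values were seen, resembled this pair in part. DM04454P3 read 3169, 844, 591 and 75 under PVP and 54, 50, 53 and 67 under silica, and is at least 6.27-fold lower, or 5.70-fold on the deposited intensities (fitted -3.36, adjusted p = 0.00671). Its PVP arrays ranked alike to those of DM11644P3, with A the highest and D the lowest. DM11495P2 read 17151, 18722, 1473 and 278 under PVP and 81, 259, 706 and 105 under silica, a difference of -4.22 (adjusted p = 0.0445), with L-PVP-NW D below L-SiO2-NW 3. Unlike the first pair, DM11495P2 was also bright in dissolved silver, at 5689 to 43831. Its call was lost without L-PVP-NW A or B, or L-SiO2-NW 1, 2 or 4, at adjusted p up to 0.175, while the calls of DM04057P3, DM11644P3, DM12580P3 and DM04454P3 held without each array.

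**Figure D4:**
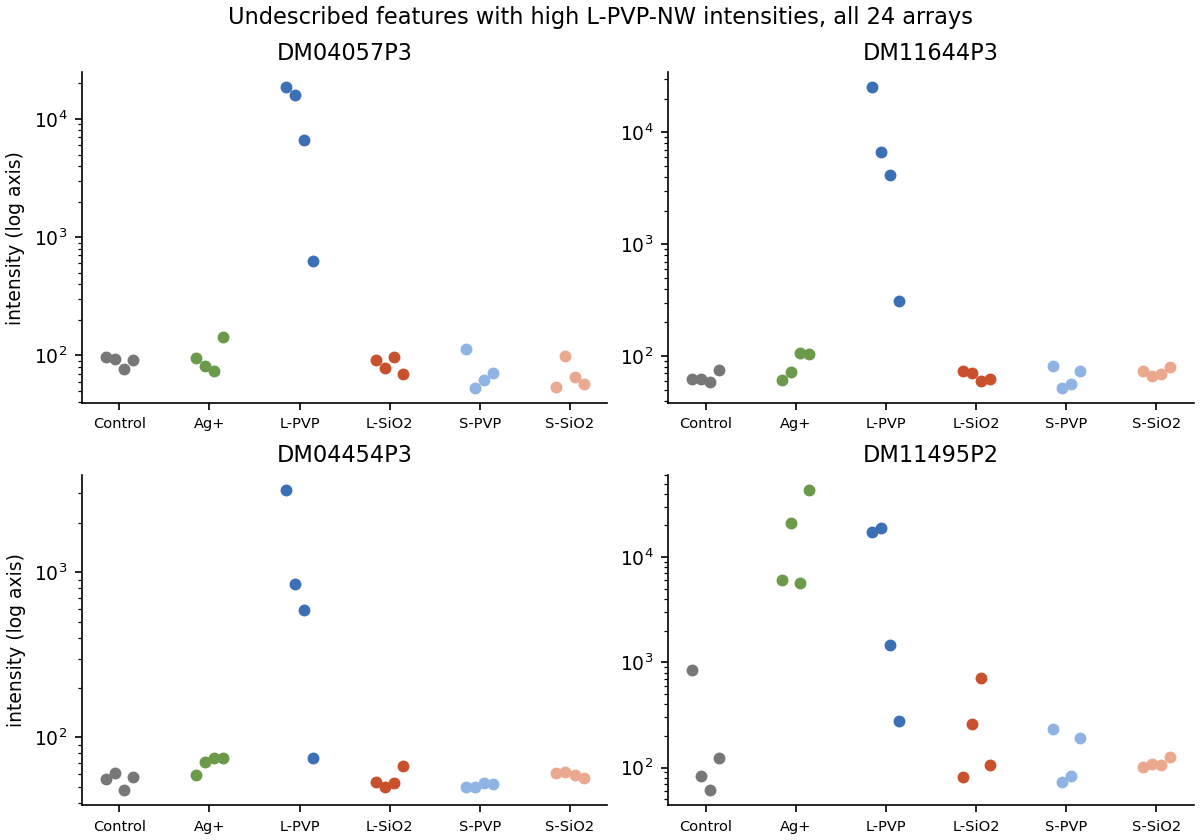
Intensity (log axis) of 4 undescribed features on all 24 arrays, 4 points per group in replicate order. DM04057P3 and DM11644P3 are high on the L-PVP-NW arrays and stay at 144 or below on the other 20 arrays, and DM11495P2 is also high with Ag+.

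In the opposite direction, 14 features were bright on all 4 L-SiO2-NW arrays and dim on all 4 L-PVP-NW and all 4 Control arrays, a grouping also made after the values were seen. The dim limit was lower on the silica arrays, whose lower quartiles were 50 to 53, than on the PVP arrays, at 55 to 58. DM11483P3 thus counted as bright at 100 on L-SiO2-NW 2 and as dim at 101 on L-PVP-NW C. Differences were small, with 1 of the 14 features past 2-fold. That feature, DM04033P1, read 75, 61, 82 and 90 under PVP and 239, 157, 161 and 343 under silica (at least 1.42-fold higher, adjusted p = 0.00574). The undescribed features with the smallest p among the higher ones were DM07140P3, DM09199P1, DM10863P2, DM11004P1 and DM12238P1. DM07140P3 read 1699, 1173, 2583 and 1597 under PVP and 6188, 5455, 6049 and 5404 under silica. Every silica array read more than 2 times the highest PVP array, and the difference was 1.37 ± 0.17 (adjusted p = 0.000589). DM09199P1 was dim on all 8 arrays. DM10863P2 and DM11004P1 were dim on all 4 PVP arrays, the latter at least 1.17-fold higher under silica and the former with no bound above 1, and DM12238P1 differed by 0.43. Among the lower ones, DM10458P1 read 281, 243, 272 and 217 under PVP and 173, 153, 124 and 148 under silica, a difference of -1.18 (adjusted p = 0.000898). DM02504P3 differed by -0.73 (adjusted p = 0.00114) on the normalised scale, while its intensities overlapped.

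The largest excesses under silica among undescribed features, picked by size after the values were seen, matched those of vitellogenin in size. DM11670P2 read 79, 86, 91 and 155 under PVP and 1960, 544, 540 and 3340 under silica, a difference of 3.27 (adjusted p = 0.0120). DM11863P4 read 84, 85, 94 and 158 under PVP and 1956, 509, 487 and 3110 under silica, a difference of 3.13 (adjusted p = 0.0133). The readings of these features were close to each other on each of the 8 arrays. DM07307P2 read 116, 133, 135 and 309 under PVP and 1952, 1700, 1657 and 2310 under silica (3.10, adjusted p = 0.0130). DM01268P2 read 86, 203, 270 and 2234 under PVP and 3427, 4243, 4665 and 4727 under silica (3.27, adjusted p = 0.0315), with L-PVP-NW D well above the other PVP arrays. The call of DM01268P2 was lost without 7 of the 8 arrays, that of DM11670P2 without L-SiO2-NW 4, that of DM07307P2 without L-PVP-NW B and that of DM11863P4 without either of these arrays.

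The short nanowires carry the same pair of coats and share no array with the long ones, so the coating difference could be set beside that of S-SiO2-NW against S-PVP-NW. There 129 features (0.9%) passed, 67 (0.467%) higher and 62 (0.432%) lower with silica. The count ran from 3 without S-SiO2-NW 3 and 5 without S-PVP-NW 4 up to 113 without S-PVP-NW 2. Of the 686 features that passed for long nanowires, 609 (88.8%) had the same sign for short ones, against 64.0% of all features. In both comparisons and with the same sign, 31 features passed, which is 4.52% of the long and 24.0% of the short list, and 1 passed with opposite signs. Among the 385 higher features the median difference was 0.70 for long and 0.28 for short nanowires, and among the 301 lower ones it was -0.56 and -0.18. These features were selected on the long difference, which enlarges the long values. The medians therefore cannot show whether the coating difference is smaller for short nanowires, and the correlation over the 686 features carries the same selection. Over the 686 features the 2 differences had a Pearson correlation of 0.720, and over all 14338 features 0.415, across features that share the arrays of each comparison. All 24 arrays were normalised together, and the floor of the arrays differs between the short groups by less than between the long ones, at 43.6 ± 1.44 and 42.3 ± 0.957.

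Among the vitellogenin features, DM01556P2 also passed for short nanowires. It read 482, 11709, 14690 and 627 on S-PVP-NW 1 to 4 and 32204, 25937, 43155 and 43637 on S-SiO2-NW 1 to 4. The groups did not overlap, and silica was higher by 3.83 (adjusted p = 0.0323). DM02255P1 gave 2.82 (adjusted p = 0.0526) and DM01546P3 2.31 (adjusted p = 0.0684) for short nanowires. In the undescribed DM11670P2, DM11863P4 and DM07307P2, short silica nanowires were higher by 3.06, 2.92 and 3.66 (adjusted p = 0.0441, 0.0492 and 0.0268). For the vitellogenin and oogenesis list the median was 1.06, with 1 feature higher and 1, DM02775P1, lower (-4.15, adjusted p = 0.0339).

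The digestive list had a median of 0.13 for short nanowires, with 1 of 28 higher and 0 lower. The higher one, DM06032P1, carries a trypsin domain lipoprotein description of bacterial origin, at 1.23 for short (adjusted p = 0.0309) and -0.04 for long nanowires. Chymotrypsin DM02109P1 read 2099 to 4783 in S-PVP-NW and 1990 to 7083 in S-SiO2-NW, with overlapping arrays and a difference of 0.13 (adjusted p = 0.970). Its coating difference was thus -2.87 for long and 0.13 for short nanowires, but the test of the difference between them did not pass (interaction adjusted p = 0.444). For trypsin DM01846P3 the interaction was -2.74 (adjusted p = 0.588), and for vitellogenin DM01556P2 it was -0.84 (adjusted p = 0.939).

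The coating difference itself differed between long and short nanowires for 3 features (0.0209%), against 1105 at an unadjusted p under 0.05. Of these, 2 were DM04057P3 (interaction -6.09, adjusted p = 0.0135) and DM11644P3 (-5.92, adjusted p = 0.0435), which were at 113 or below on every short nanowire array. The third, DM12737P2, read 115, 158, 220 and 114 under long PVP and 117, 105, 102 and 138 under long silica. On the short nanowire arrays it read 82 to 110 under PVP and 174 to 228 under silica. On the normalised scale the difference was -0.66 for long and 0.81 for short nanowires (interaction -1.46, adjusted p = 0.0435). The long intensities overlapped, although the normalised values did not. Its long-nanowire call was lost without 7 of the 8 arrays and with median centring, and that value ran from -0.86 to -0.36 over the alternatives. Leaving out single arrays of the 4 nanowire groups gave 0 to 33 such features, with 33 without L-PVP-NW D and 0 without S-PVP-NW 2, S-PVP-NW 3 or S-SiO2-NW 2 (928 to 996 at an unadjusted p under 0.05 in limma), and 1 or 2 without each other array. Short of the threshold, DM14198P1 gave an interaction of 3.94 (adjusted p = 0.0605), and the 10 kDa putative secreted protein DM02000P3 gave -3.14 (adjusted p = 0.0757).

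**Figure D5:**
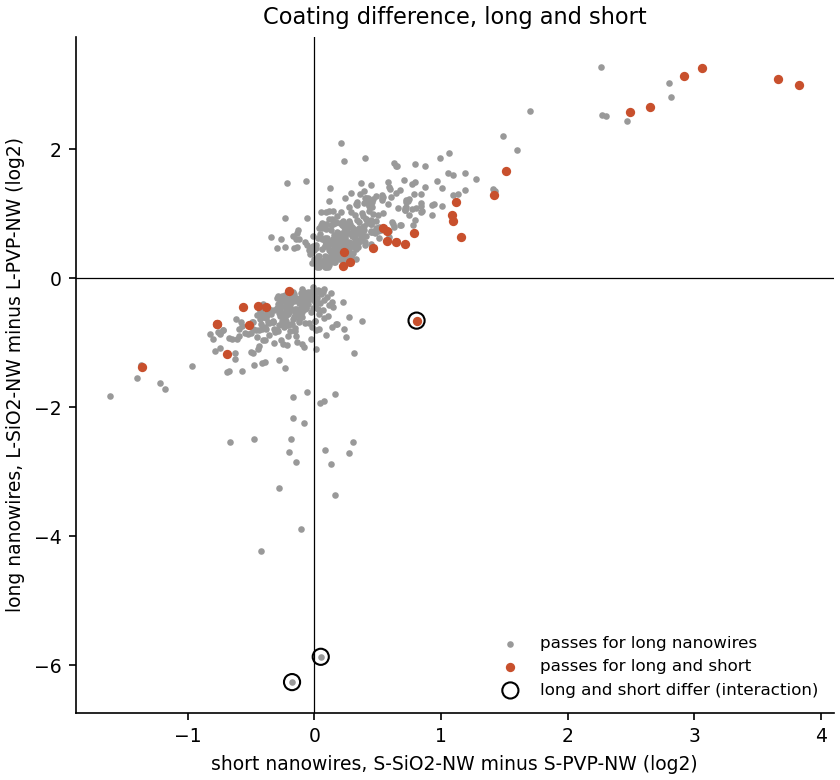
Coating difference for long nanowires (log2, vertical axis) against that for short nanowires (log2, horizontal axis) for the 686 features that passed for long ones. Coloured points passed for both lengths, rings mark the 3 features whose difference depends on length, and the strip below the centre holds features that are lower under silica for long nanowires with values near 0 for short ones.

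The position of both exposures relative to unexposed animals could be read from the same fit, with the Control arrays shared. L-SiO2-NW differed from Control for 138 features (0.962%), 85 (0.593%) higher and 53 (0.37%) lower, and L-PVP-NW for 4 (0.0279%), all higher. These 2 counts depended on single arrays: the first ran from 18 to 427 and the second from 2 to 123 when 1 array was left out, with 18 (Control 2 left out) and 427 (Control 4) for the first, and 123 (Control 1) and 85 (L-PVP-NW D) for the second. Against Control, the 385 features higher under silica lay at a median of 0.50 for L-SiO2-NW and of -0.18 for L-PVP-NW. For the 301 lower features the medians were -0.26 and 0.22. All these features were selected on the difference between the coatings, so a gap between the medians against the shared Control partly restates that selection. The floor of the Control arrays overlapped that of the L-PVP-NW arrays and not that of the L-SiO2-NW arrays. An array batch and the exposure thus cannot be told apart in L-SiO2-NW against Control. With the floor as a covariate, 0 features passed there in limma (830 of 14338 at an unadjusted p under 0.05), and 3 passed in L-PVP-NW against Control.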

How the data were processed

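The 24 single-colour arrays hold whole-animal Daphnia magna RNA labelled with Cy3 by the Agilent Quick-Amp protocol from 300 ng of total RNA extracted with Trizol, per the labels. The deposited intensity values carry no background subtraction or scaling that their ranges show, and the authors' scanner and extraction settings are not stated. The authors' deposited table gives log2 ratios to medium, rounded to 1 decimal, and the score of each protein match (its E value) in 1 file; the authors' normalization, test and threshold are not stated. Here, intensities were corrected with normexp (offset 50), taken to log2 and quantile-normalised over the 24 arrays, with 310 zeros on array Ag+ 2 set to missing. limma 3.58.1 in R 4.3.3 fitted 1 mean per group over all arrays, and contrasts were tested with eBayes, two-sided. Feature p-values are limma's, adjusted by Benjamini-Hochberg over 14338 features. Array intensities have no counts behind them, so the number of arrays limits the precision.

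The members and gene lists were chosen with earlier results of these data known. Named features are up to 12 described features in each direction with the largest differences whose arrays did not overlap, up to 5 undescribed ones in each direction with the smallest p, the 4 members of each list with the smallest p, and up to 5 interaction features in each direction. Other named features are said to be chosen after their values were seen, or are members of a list or of a count given beside them. A feature dim on all arrays of 1 group has a bound, "at least N-fold", on the normalised scale unless said otherwise: the bright group's mean against, per array, the higher of 2 times the lower quartile and the feature's own value. Alternatives changed background correction, normalization, filters, the variance model, array weights, the floor covariate and the arrays fitted.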

Additional observations from a re-analysis of the deposited data

Results flagged for a closer look

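For the 100 named features, the 4 arrays of each coating were checked for a single array far from the other 3 (200 groups, by Dixon's test), and 9 groups held one. Chance gives such an array in about 1 in 20 groups. Values are normalised log2 intensities. Vitellogenin-like DM05876P2 was 7.15 on L-PVP-NW D, against 6.12 to 6.28 on the other PVP arrays. On L-SiO2-NW 2, DM02198P3 was 8.38 against 6.39 to 6.60, and DM02032P3 was 8.45 against 7.23 to 7.35. DM02032P3 also stood at 10.11 on L-PVP-NW B, against 9.05 to 9.20. On L-PVP-NW C, the calponin/transgelin feature DM02128P2 was low at 10.58 against 11.27 to 11.35, calreticulin DM00482P3 was low at 7.27 against 8.03 to 8.12, and peroxidasin DM05947P2 was high at 10.24 against 9.23 to 9.34. Aspartyl-tRNA synthetase DM01109P1 was 6.81 on L-PVP-NW B against 6.28 to 6.37, and DM06134P1 was 9.80 on L-PVP-NW D against 9.41 to 9.45.

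The coating difference depended on nanowire length for 3 features by the interaction test. The interaction was -6.09 for DM04057P3 (-6.26 for long and -0.18 for short nanowires), -5.92 for DM11644P3 (-5.87 and 0.05) and -1.46 for DM12737P2 (-0.66 and 0.81).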

How the results depend on the processing

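The L-SiO2-NW against L-PVP-NW count of 686 was 666 to 710 with no background correction, a normexp offset of 16 or median centring, and 492 to 790 with dim features left out, a trended robust variance or the 16 nanowire arrays alone. It was 396 with a common 75th percentile, 1510 with array weights, 311 on only the 8 arrays, 145 with the 75th percentile over bright features, and 0 once the array floor entered as a covariate. Leaving out 1 array gave 204 (without L-PVP-NW B) to 840 (without L-PVP-NW D). The share of calls higher under silica was 67.0% with median centring and 45.9% with the 16 nanowire arrays, against 56.1%. The median of all features was -0.32 with the common 75th percentile and -0.31 over bright features. Relative to that median, the vitellogenin list lay at 1.58 and the digestive list at -0.22 under both and under median centring, against 1.30 and -0.39. The cytosolic ribosomal list lay at 0.08 in place of -0.32. These scalings each shift an array by a constant, so their values relative to the median are the same by construction and count as 1 alternative. Of the 52 named features that passed, 0 changed sign under any setting, 23 passed without each array in turn, and 0 passed with the floor covariate. The short count of 129 was 209 on bright features, 84 with a trended robust variance, 256 with array weights, 225 with the floor, 237 with 16 arrays, 83 on its 8 arrays, and 3 to 113 with 1 array left out. The interaction count of 3 was 5 on bright features, 13 with array weights and 0 to 33 with 1 array left out. With the floor it was 0, and 918 of 14338 features had an unadjusted p under 0.05 in limma, against 1105 without the floor. The L-SiO2-NW against Control count of 138 was 52 and 18 with the 75th percentiles, 65 with a trended robust variance, 327 with array weights, 0 with the floor (830 at an unadjusted p under 0.05), 2 on its 8 arrays, and 18 to 427 with 1 array left out. That of L-PVP-NW, 4, was 2 with median centring, 7 with a trended robust variance, 24 with array weights, 2 with the 75th percentile over bright features, and 2 to 123 with 1 array left out. Among features that did not pass, the sign turned for DM01561P3 (-0.93) and DM01822P3 (2.75) with the floor covariate. With median centring it turned for DM01845P3 (0.0095), DM01902P1 (0.0858) and DM06032P1 (0.25), the last running from -0.19 to 0.15 with 1 array left out. For DM02775P1 it was -0.10 with the common 75th percentile, -0.20 with array weights, -0.0802 over bright features, and -0.68 to 0.85 with 1 array left out. The cause of these changes was not tested. The 75th percentile over bright features, the replicate block and leaving out Control arrays were chosen after seeing the data.

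No paired analysis was possible for the long coatings because L-PVP-NW arrays carry letters and L-SiO2-NW arrays numbers. With a replicate block on their 8 arrays, S-SiO2-NW against S-PVP-NW and L-SiO2-NW against Control gave 0 calls in limma (1360 and 1551 at an unadjusted p under 0.05). Same-numbered arrays correlated at -0.44 to -0.24 and -0.44 to -0.03 in their deviations from the group means. Deviations sum to 0 within each group, so negative values here leave a positive covariance, on balance, for differently numbered arrays. Same-numbered arrays thus showed no shared deviation, and whether the numbers mark pairs was not tested further.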
